A study of Homo sapiens with 68 samples.

Results

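RBFOX2 was immunoprecipitated from HEK293T, an established line of human embryonic kidney origin, with and without ultraviolet crosslinking, and in both cases without the gel step that normally selects protein-RNA complexes by size. The libraries titled noUV_noPAGE_RBFOX2 (2 replicates) were set against those titled RBFOX2_50k_noPAGE (2 replicates), gene by gene and site by site, to see which entries stay listed when crosslinking is left out. These 4 of the 68 libraries of the series hold 432893 of its 15800601 listed peaks and 14439 of its 22843 listed gene identifiers. All 4 were made by TLC-CLIP, a method that sequences RNA fragments recovered with 1 protein, from 50000 cells each with the antibody RBM9 (an older name of RBFOX2) and 0.005 U of RNase. The labels of all libraries describe crosslinking, so its absence is taken from the titles and from the design text of the series. The labels do not say whether replicates came from separate cultures, so the p-values measure the spread between these libraries, which may be technical. The groups were also deposited in separate runs, and a difference in preparation and the omission of ultraviolet light cannot be told apart here.

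RBFOX2 is a splicing factor whose RNA recognition motif binds GCAUG in pre-mRNA, often in introns beside the exons it regulates. Ultraviolet light joins protein and RNA covalently where they touch, so that harsh washing leaves the bound RNA behind. How RNA recovered without it was held is not recorded in the lists. The lists name genes by Ensembl identifier and do not pair them with symbols, and the genome sequence of their build was not used here, so sites are given by position (hg19) and the motif was not analysed.

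A peak is an interval that the authors' caller listed, with a p-value and a number that was read here as the reads over the peak, whose meaning is not stated. Peaks on 1 strand less than 30 nt apart were joined into a site, which takes the highest of their read numbers. A peak was listed from 4 reads upward, and an unlisted gene or site has no value rather than 0 reads. Sequencing depth is unknown, and the sum over the sites of a list, called listed reads, was used for scale, as reads per 1000000 listed reads (RPM).

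Without crosslinking the lists were shorter. The crosslinked libraries listed 157375 and 161434 peaks and the libraries without UV 52842 and 61242, so the groups did not overlap. The mean log2 peak number was 15.80 ± 0.15 (SD, n = 2) without UV and 17.28 ± 0.03 (SD, n = 2) with it, a 2.80-fold difference. The exact two-sided permutation p was 0.333, the smallest that 2 against 2 libraries allow. Listed reads came to 3393238 and 3493971 in the crosslinked libraries and to 813082 and 1042307 without UV. The listing minimum of 4 reads therefore equals 1.18 and 1.14 RPM in the crosslinked libraries, and 4.92 and 3.84 without UV. Peaks were also narrower without UV, with medians of 50 and 51 nt against 59 nt in each crosslinked library (exact permutation p = 0.333).

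Most genes listed in the crosslinked libraries stayed listed without UV. Of 12460 genes listed in both crosslinked libraries, 7911 (63.5%) were listed in both libraries without UV, 1953 (15.7%) in 1 of them and 2596 (20.8%) in neither. The share in neither was 5.70% when each list was shortened to the same number of peaks and 39.5% with only peaks of p below 1e-05. The reverse loss was small, since 98.2% of the 8059 genes listed in both libraries without UV were in both crosslinked lists and 51 were in neither. Lost genes had carried little signal. Their median was 19 listed reads at 2.5 sites in the crosslinked libraries, against 184.5 reads at 10.5 sites for genes that stayed. Single libraries lost more, 31.3% in replicate 1 and 26.1% in replicate 2.

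To allow for the smaller lists, each gene and site was given the number of reads it would have without UV if it kept the lower of its crosslinked shares. Below 4 expected reads 62.3% of genes were lost, from 10 to 20 reads 19.5%, from 20 to 50 reads 6.35%, and from 100 reads 0.187%. Among 6516 genes with at least 20 expected reads, 190 (2.92%) were in neither list without UV. Their share varied with the listed span of the gene. Where the listed peaks of a gene spanned less than 500 nt, 30 of 323 such genes (9.29%) were lost, against 1.98% at spans of 500 to 5000 nt and 6.60% above 500000 nt. At the short spans this counts identifiers, since 20 of the 30 were overlapped by a site without UV listed under another gene.

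**Figure D1:**
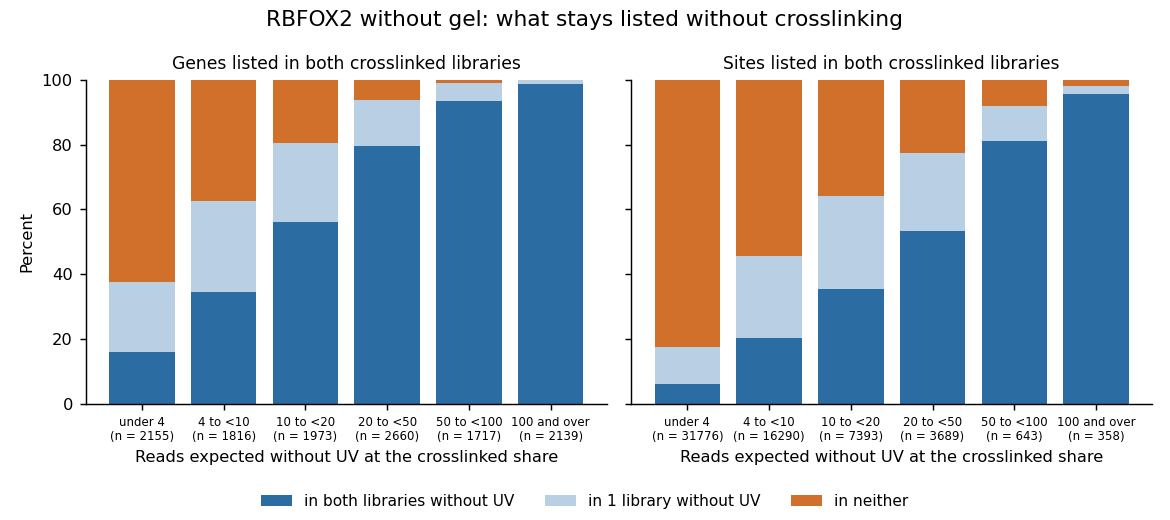
Percent of genes (left) and sites (right) of both crosslinked RBFOX2 libraries that were listed in both, 1 or neither library without UV, by the reads expected without UV at an unchanged share. Loss fell from 62.3% to 0.187% in genes and from 82.6% to 1.96% in sites across the bins.

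The lost genes with the most reads included several very short ones. Of the 10 with the highest lower read number, the first had 873 and 905 reads in the crosslinked libraries over a listed span of 48 nt. The next had 567 and 565 reads over 58 nt, then 482 and 509 reads over 66 nt. A different kind of lost gene was spread over many small sites, such as one with 368 and 344 reads at a mean of 27.5 sites over 85720 nt, and one with 348 and 308 reads at 45.5 sites over 287981 nt. A lost identifier was not always a lost position. Of the 30 short lost genes with at least 20 expected reads, 20 were overlapped by a site without UV that was listed under another gene, and 10 were not overlapped. Over all 190 such genes, 22 were overlapped in this way.

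Sites were lost far more often than genes, which stay listed through any listed peak. Of 60149 sites of crosslinked replicate 1 that replicate 2 overlapped by at least 1 nt on the same strand, 10675 (17.7%) were overlapped by both libraries without UV, 10830 (18.0%) by 1 and 38644 (64.2%) by neither. By library the share was 25.3% for replicate 1 and 28.2% for replicate 2. The share kept in both depended on the reference and on the definition of overlap: it was 9.25% and 9.34% of the sites of a single crosslinked library, without replicate 1 and without replicate 2, 32.8% at equal list lengths and 9.58% when at least 50% of the site had to be overlapped. When the sites were moved by 1000 nt along the strand, 3.52% met both lists, which serves as the background. The kept sites held 42.6% and 42.3% of the listed reads of the crosslinked libraries and the lost ones 22.4% and 23.5%. Loss was again graded by signal, from 82.6% below 4 expected reads through 35.8% at 10 to 20 and 22.6% at 20 to 50 to 1.96% at 100 or more.

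Loss at sites exceeded loss at genes of the same expected reads. A gene stays listed through a peak anywhere in it, while a site must be overlapped at its own position. The direction of this difference is therefore largely built in. Of 4690 sites with at least 20 expected reads, 892 (19.0%) were in neither list without UV and 2829 (60.3%) in both. Narrow sites were lost most often: 40.5% of those under 20 nt and 12.6% of those of 120 nt or more. Even the smallest overlap keeps a site, so a wide site is more easily kept by its width alone. The size of that part was not tested. Moved sites were not split by width, and sites of different width were not matched for read number. Of the 892 lost sites, 877 (98.3%) lay in a gene listed in both libraries without UV. Most genes with this much signal stayed listed in any case. Of all genes with 20 to 50 expected reads, 79.5% were in both lists without UV. That share was 93.3% at 50 to 100 reads and 98.7% at 100 or more. A site without UV lay within 100 nt of 298 of the lost sites (33.4%) and within 500 nt of 715 (80.2%). These shares were not counted for kept or moved sites. Whether reads remained at the site below the caller's threshold was not tested.

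The strongest lost sites were well covered with crosslinking. The site chr1:109643109-109643176 on the plus strand had 4067 and 4086 reads in the crosslinked libraries, and 1084.89 reads would be expected without UV. It was also listed in both crosslinked libraries given RecJ, an added exonuclease digestion, at 2728 and 3025 reads, and in neither crosslinked library with gel and low RNase nor in any of 10k or 1k cells. The site chrX:73072019-73072111 on the minus strand had 2164 and 2249 reads with crosslinking. The RecJ libraries listed it as well, at 2363 and 2377 reads. It was missing from the crosslinked RBFOX2 lists with gel and low RNase and from those of 10k and 1k cells. The hnRNPc libraries without gel listed it at 1384 and 1507 reads with UV and at 5748 and 1771 reads without.

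Others were RBFOX2 sites with a gel as well. The site chr11:65268974-65269096 on the plus strand had 1522 and 1701 reads in the crosslinked libraries without gel and 1072 and 710 in those with gel. The site chr13:92003580-92004219 on the plus strand had 580 and 726 reads without gel and 293 and 151 with it. The site chr14:102547574-102547804 on the minus strand had 466 and 414 reads without gel and 563 and 392 with it. All 3 were listed in both crosslinked groups and in neither RBFOX2 library without UV and without gel, and the libraries of 10k and 1k cells listed each of them too. Some lists made without UV did hold them. The chromosome 11 site was listed at 57 reads in 1 of the RBFOX2 libraries without UV with gel, at 343 and 493 reads in hnRNPA1 and at 851 and 870 in hnRNPc without UV. The chromosome 14 site was listed at 34 reads in 1 RBFOX2 library without UV with gel, at 43 and 42 reads in hnRNPA1 and at 40 and 66 in hnRNPc without UV. The chromosome 13 site was in neither RBFOX2 library without UV with gel, and without UV it was listed at 5 reads in 1 hnRNPA1 library and at 19 and 41 in hnRNPc.

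Sites found without UV were also compared with the crosslinked lists. Of 20336 sites of the first library without UV that the second overlapped, 10759 (52.9%) were in both crosslinked lists and 5390 (26.5%) in neither. Moved by 1000 nt, 10.6% met both. The share in both lists was 33.4% and 34.5% of the sites of a single library without UV, without replicate 1 and without replicate 2, 42.6% at equal list lengths and 39.9% at an overlap of at least 50%. Sites in neither crosslinked list were weak, with a median of 9 reads against 16 for shared ones, and held 9.70% and 9.31% of the listed reads without UV. The share in neither list was 42.7% below 20 expected crosslinked reads and 9.09% at 500 or more. Of the 5390, 5339 (99.1%) lay in a gene that both crosslinked libraries listed, and 27.9% had a crosslinked site within 100 nt. The first share is near that of all genes listed in both libraries without UV, of which 98.2% were in both crosslinked lists. Of all 20336 sites moved by 1000 nt, 18.1% met at least 1 crosslinked list without any margin. The share within 100 nt was not counted for moved sites.

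The most abundant sites seen only without UV were moderate in size. The site chr2:232320721-232320847 on the minus strand had 345 and 429 reads without UV, and chr1:93303013-93303167 on the plus strand had 322 and 451. Both were also listed without UV by RBFOX2 with gel (83 and 68 reads at the first, 116 and 78 at the second) and by hnRNPA1 without gel (108 and 69 at the first, 120 and 143 at the second). The site chr4:2828057-2828462 on the plus strand, with 326 and 251 reads, was in both libraries without UV with gel, at 64 and 55 reads, and in neither hnRNPA1 nor hnRNPc list without UV. The site chr11:65267241-65267353 on the plus strand, with 251 and 501 reads, was a much larger hnRNPA1 site, at 9947 and 10204 reads with UV and 5425 and 9090 without. It was listed under the same gene identifier as the lost site on chromosome 11 above. The fifth, chr22:39711374-39711560 on the minus strand, had 228 and 219 reads. Absence from the crosslinked lists was not shared by all RBFOX2 libraries, since the first 3 were listed at 23 to 58 reads in at least 1 of the crosslinked low RNase libraries with gel and at 28 to 138 reads in both libraries of 10k cells. The fourth was listed at 429 reads in 1 of the crosslinked RecJ libraries without gel, and the fifth at 46 reads in 1 library of 10k cells.

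Kept and lost sites differed in the libraries of other antibodies when compared at the same expected reads, 20 to 50. Both kinds were found again with crosslinking: the RecJ libraries without gel overlapped 98.7% ± 0.3 (SD, n = 2) of 1966 kept sites and 88.2% ± 1.0 (SD, n = 2) of 832 lost ones, against 39.9% and 36.8% for the same sites moved. The crosslinked RBFOX2 libraries with gel and low RNase overlapped 81.5% ± 0.5 (SD, n = 2) and 78.1% ± 1.5 (SD, n = 2), against 35.8% and 37.4% moved. In RBFOX2 without UV but with gel, libraries that played no part in the sorting, the shares were 63.2% ± 5.1 (SD, n = 2) and 17.9% ± 2.2 (SD, n = 2), against 18.8% and 11.1% for moved sites. The libraries without UV of the other antibodies separated them too. For hnRNPA1 50.3% ± 3.4 (SD, n = 2) of kept sites and 14.5% ± 0.4 (SD, n = 2) of lost sites were overlapped, for hnRNPc 39.4% ± 4.7 and 12.7% ± 0.3, and for hnRNPI 42.3% ± 7.4 and 12.3% ± 3.1 (SD, n = 2 each). Moved kept sites met 17.8% in hnRNPA1, 17.1% in hnRNPc and 12.9% in hnRNPI. The values of lost sites lay within 2 percentage points of those of moved sites for hnRNPc and hnRNPI (11.4% and 10.5%), and 11.8% of moved sites were met in hnRNPA1. In all 3 other antibodies without UV, both libraries listed 288 kept sites (14.6%) and 1 lost site (0.120%).

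**Figure D2:**
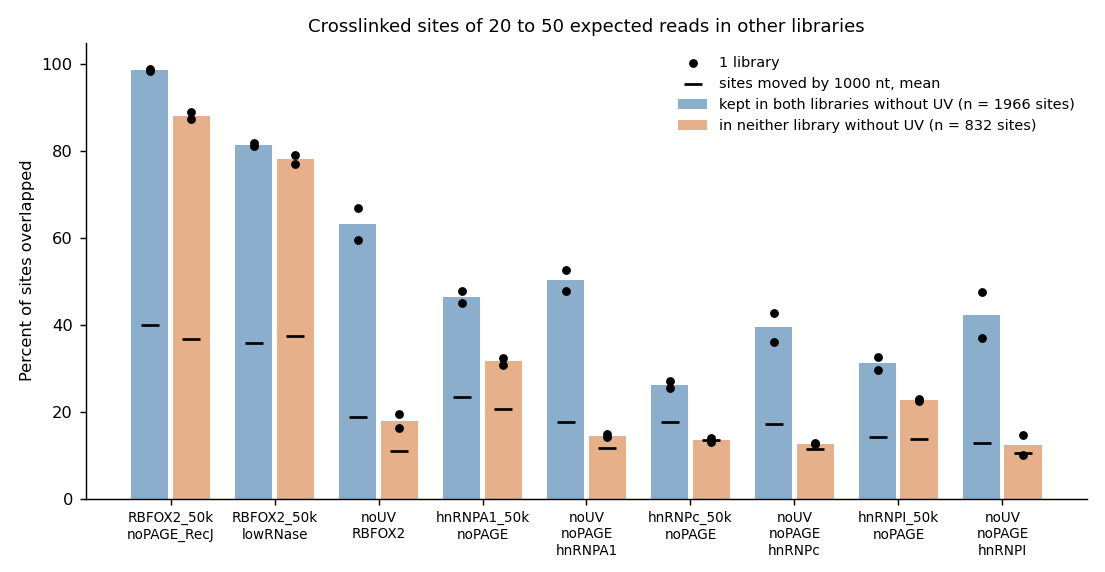
Percent of crosslinked RBFOX2 sites of 20 to 50 expected reads that each other group overlapped (bars, mean of 2 libraries; points, single libraries; dashes, the same sites moved by 1000 nt). Kept and lost sites lie at 81.5% and 78.1% in crosslinked RBFOX2 with gel, and at 63.2% and 17.9% in RBFOX2 without UV with gel.

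Crosslinked libraries of the other antibodies separated kept from lost sites less widely: hnRNPA1 overlapped 46.4% ± 1.8 (SD, n = 2) of kept and 31.6% ± 1.0 (SD, n = 2) of lost sites, hnRNPc 26.3% ± 1.2 and 13.6% ± 0.7, and hnRNPI 31.2% ± 2.2 and 22.7% ± 0.2 (SD, n = 2 each). Moved kept and lost sites met 23.3% and 20.7% in hnRNPA1, 17.7% and 13.5% in hnRNPc, and 14.1% and 13.8% in hnRNPI. In each of these groups both libraries gave a higher share for kept than for lost sites. The difference between the separations with and without UV was not tested.

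Where a site was listed in all 4 libraries, its listed width was smaller without UV. The crosslinked lists hold more reads, so more flanking peaks can reach the minimum of 4 reads. The part of this in the width was not tested. For the 11946 such sites the median listed width was 103 and 104 nt with crosslinking and 76 and 80 nt without, and the mean number of peaks per site 2.15 and 2.18 against 1.61 and 1.69. The highest peak moved little. Its median distance between libraries was 13 nt within the crosslinked pair, 17 nt within the pair without UV and 20 to 22 nt across them. In 3565 sites with at least 20 reads in each library these distances were 8, 11 and 15 to 16 nt. Their highest peak had a median width of 75 nt with crosslinking and 73 to 74 nt without. Their median listed width was 123 nt in each crosslinked library, and 103 and 106 nt without UV. Distances across the groups pointed 3 to 5 nt toward the 5′ end without UV over all 11946 sites.

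Shares of listed reads were tested with limma for the 7911 genes listed in all 4 libraries, as log2 of RPM plus 1. At an adjusted p under 0.05, 3921 genes differed (49.6% of those tested), 1351 higher without UV (17.1%) and 2570 lower (32.5%), with a median difference of −0.37. The direction depends on scale: with each library centred on its median, 2039 were higher and 1556 lower. Without crosslinked replicate 1 the median difference was −0.38. A gene's value sums only sites above the listing minimum, and the calls varied with the number of crosslinked sites. Of 296 genes with at least 50 crosslinked sites 72.0% were lower and 9.46% higher, whereas of 1077 genes with 2 to 5 sites 7.80% were lower and 24.3% higher. The bins use the crosslinked sites whose sum is subtracted in the difference, so part of this gradient is built in. The size of that part, and the part of the listing minimum, were not tested.

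The genes with the largest changes are given with their site numbers, which enter the change itself. ENSG00000168724.10 had 3.54 and 3.43 RPM at a mean of 2 sites with crosslinking, and 183 and 174 at 14 sites without UV, a log2 difference of 5.32 ± 0.37 (SE; limma adjusted p = 1.73e-05). ENSG00000129680.11 had 20.0 and 7.73 with crosslinking and 410 and 410 without, a log2 difference of 4.92 ± 0.38 (SE). In both, the libraries without UV lay well above the crosslinked ones. On the other side, ENSG00000185760.11 had 238 and 231 at 95 sites over 575558 nt with crosslinking, and 4.92 and 3.84 without UV, where 1 site at the minimum of 4 reads was listed. ENSG00000085276.13 had 339 and 342 at 126 sites with crosslinking and 9.84 and 5.76 without UV. The log2 differences were −5.46 ± 0.35 and −5.32 ± 0.32 (SE).

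Of the 10 genes with the largest called falls, 7 had listed spans from 213537 to 1893884 nt and 3 spanned less than 500 nt. These 10 had a median of 62.25 sites with crosslinking and 1 without UV. Of all 7911 genes fitted, 2769 spanned 50000 to 500000 nt, 115 at least 500000 nt and 332 less than 500 nt. The 10 with the largest rises had a median of 2 sites with crosslinking and 7.25 without UV, and listed spans from 106 to 38063 nt. Fits with 1 library left out keep the same listing minimum, so they cannot show its part in these changes, which was not tested.

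Single sites, which take 1 read number and no sum, showed the opposite balance. Of 11946 sites listed in all 4 libraries, 5606 differed in limma at an adjusted p under 0.05 (46.9%), 4487 higher without UV (37.6%) and 1119 lower (9.37%), with a median difference of 0.52. Weak sites enter only if they reach the higher minimum without UV. Among 479 sites with a mean of at least 100 RPM, a limit added after the data were seen, 203 were higher and 170 lower. With each library centred on its median, 2715 were higher and 2294 lower over all sites. Sites holding a peak of a gene with a listed span under 500 nt went the other way from the rest: 189 of 405 were lower (46.7%) and 99 higher (24.4%), against 930 of 11541 lower (8.06%) and 4388 higher (38.0%) among other sites. Centred, 232 and 2062 were lower. Wide sites were lower more often: 17.6% of 3877 sites of 200 nt or more were lower and 25.3% higher, against 1.22% and 51.3% of 735 sites under 60 nt. Centred, the balance in wide sites turned, with 1261 lower and 543 higher, while of the narrow ones 47 were lower and 250 higher. Width is that of the site joined over the 4 lists, and crosslinked lists give wider sites, so width is not independent of the change. A weak site near the minimum without UV can hardly be called lower. Neither this split nor that by listed span was matched for read number.

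**Figure D3:**
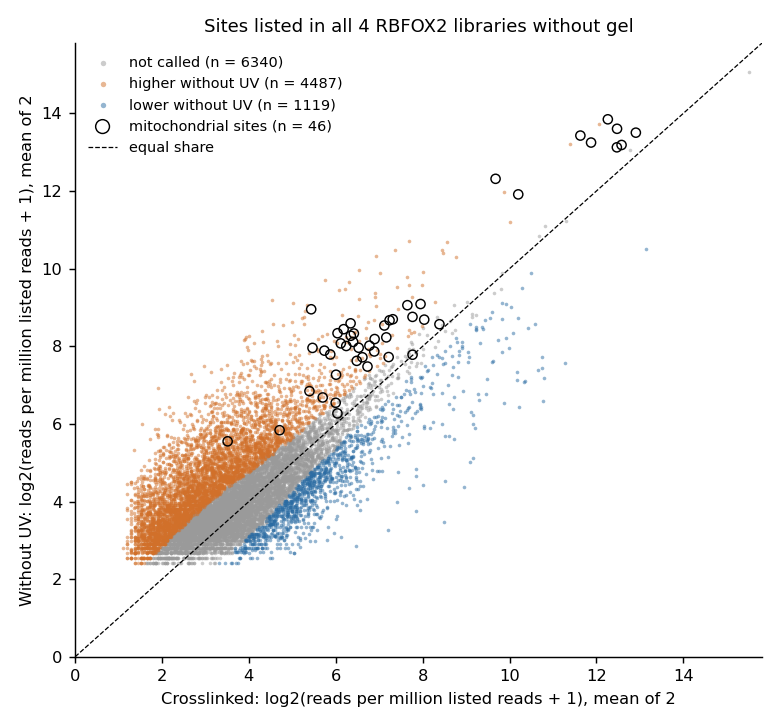
Mean log2(RPM + 1) of 2 crosslinked (x) and 2 libraries without UV (y) for 11946 RBFOX2 sites, coloured by the limma call (legend counts include the 46 circled mitochondrial sites). The lower edge of the cloud is the listing minimum of 4 reads. In all, 4487 sites were called higher and 1119 lower.

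The sites that fell most with at least 20 reads in every library were each listed under more than 1 gene. Among sites of this size, 5 in each direction were taken by the size of the change, 1 per gene. The site chr14:95999690-95999968 on the minus strand had 1739 and 1728 RPM with crosslinking and 82.4 and 108 without UV, a log2 difference of −4.18 ± 0.18 (SE; limma adjusted p = 8.37e-11). The site chr1:109642824-109643024 on the plus strand, listed under the same gene as the strongest lost site, had 2518 and 2442 with crosslinking and 188 and 192 without UV (log2 difference −3.70 ± 0.16, SE). The other 3 lay at chr14:81669037-81669181 (minus), chr12:6619386-6619717 (plus) and chr12:7076499-7076772 (minus), with log2 differences of −4.06, −4.05 and −3.76. Each of the 5 was listed under 2 or 3 gene identifiers. Over all sites of each library 4.57% to 4.77% were listed under more than 1. That is an unlike background, as those sites hold a mean of 1.15 to 1.17 peaks and the 5 joined sites 23 to 103. The share among joined sites of at least 20 reads was not counted. In crosslinked RBFOX2 with gel all 5 were listed in both libraries, at 2256 and 1379 reads for the first and 7687 and 6327 for the second.

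The sites that rose most were each listed under 1 gene. The site chr6:26056176-26056292 on the minus strand had 24.8 and 19.7 RPM with crosslinking and 568 and 603 without UV, a log2 difference of 4.67 ± 0.20 (SE; limma adjusted p = 8.37e-11). The site chr14:102552648-102552715 on the minus strand had 14.4 and 14.0 with crosslinking and 273 and 328 without UV, a log2 difference of 4.30 ± 0.22 (SE). It was listed under the same gene identifier as the lost site at chr14:102547574-102547804. The site chr9:100767309-100767435 on the plus strand had 12.4 and 15.5 with crosslinking and 282 and 284 without UV. Another on chromosome 8 and one at chr2:70974505-70974910 had log2 differences of 4.52 and 4.28. The 10 sites of both directions stayed called after centring and kept their direction without each library in turn.

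Of the 5 sites with the most reads, 1 was called lower, 2 higher and 2 were not called. The largest, chr11:62609121-62609283 on the minus strand, had 48041 and 46041 RPM with crosslinking and 30336 and 39067 without UV. Its log2 difference of −0.45 ± 0.19 (SE) missed the threshold (limma adjusted p = 0.0647). The site chr10:103124607-103124709 on the minus strand fell from 9376 and 8819 to 1316 and 1629, a log2 difference of −2.63 ± 0.17 (SE; limma adjusted p = 2.91e-09). The site chr3:180949522-180949591 on the plus strand had 7706 and 6342 with crosslinking and 8640 and 8450 without UV (log2 difference 0.29, limma adjusted p = 0.178). Without replicate 1 and replicate 2 of the libraries without UV, the log2 difference of the first of these was −0.27 and −0.63. That of the last was 0.27 and 0.31. The 2 called higher were mitochondrial. The site chrM:2201-2298 on the plus strand had 7552 and 7809 RPM with crosslinking and 10067 and 13379 without UV. Its log2 difference was 0.60 ± 0.18 (SE; limma adjusted p = 0.0123), and 0.39 to 0.80 with 1 library left out. The site chrM:2631-2899 on the plus strand had 5565 and 5810 with crosslinking and 11257 and 13745 without UV, a log2 difference of 1.13 ± 0.17 (SE; limma adjusted p = 5.26e-05). After centring neither mitochondrial site passed (limma adjusted p = 0.775 and 0.0863).

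Mitochondrial transcripts took a larger share without UV. The mitochondrial chromosome held 4.65% and 4.87% of listed reads in the crosslinked libraries and 9.42% and 11.7% without UV, which did not overlap. Of 46 mitochondrial sites in the fit 41 were higher and 0 lower in limma (median log2 difference 1.38), and all 46 differences were above 0. Over all 11946 sites of the fit 37.6% were higher and the median was 0.52. After centring 32 of the mitochondrial sites were higher and 0 lower, and 1 mitochondrial site was lower at an unadjusted p under 0.05; over all sites 2715 were higher and 2294 lower. At chrM:5789-5859 on the minus strand (as the lists number that chromosome), the site with the largest rise, the values were 46.9 and 38.1 RPM with crosslinking and 466 and 525 without UV (log2 difference 3.52 ± 0.20, SE; limma adjusted p = 6.30e-10). Mitochondrial sites also stayed listed: 53 of 61 in both crosslinked lists were in both lists without UV (86.9%, against 17.7% of all sites, with no matching for read number). The share was higher without UV in both libraries of each other group too: 12.6% and 15.2% against 0.815% and 1.06% for RBFOX2 with gel, and 15.6% and 14.7% against 6.01% and 5.94% for hnRNPA1. It was 7.60% and 4.43% against 3.53% and 3.49% for hnRNPc, and 6.89% and 4.89% against 1.17% and 1.00% for hnRNPI.

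**Figure D4:**
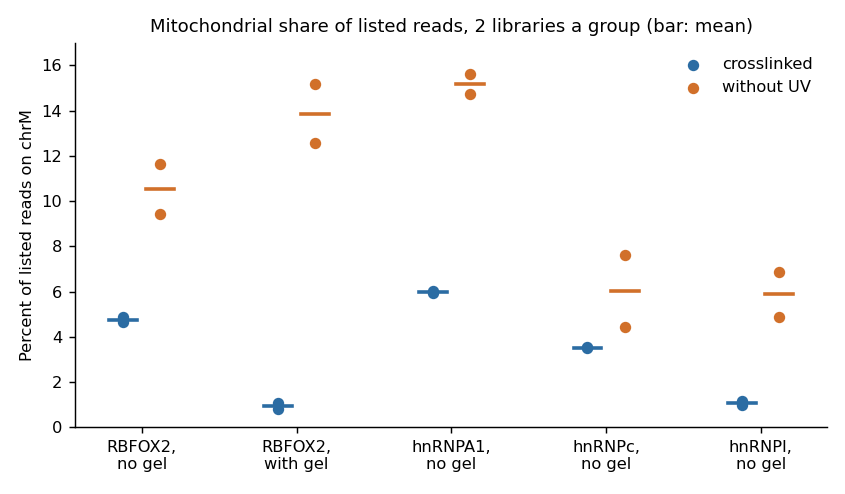
Percent of listed reads on the mitochondrial chromosome in crosslinked libraries and libraries without UV, for RBFOX2 without and with gel and for 3 other antibodies without gel (points, libraries; bars, means of 2). In RBFOX2 without gel the means are 4.76% and 10.5%.

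The change at single sites could be compared with the same comparison made with a gel, in libraries that share no sample with the first: RBFOX2_50k_lowRNase against noUV_RBFOX2, 2 each. Of the 11946 sites 2834 were listed in all of these as well. Over them the difference without gel correlated with that with gel at Pearson's r of 0.717 and Spearman's rho of 0.722, across sites, which are not independent and share their listing minima. Of the 1279 sites called higher without gel, 1249 (97.7%) had a positive difference with gel, and of the 427 called lower 191 (44.7%) did. The scale differs, because the median difference with gel was 1.36 over all 2834 sites. Relative to that median, 80.3% of the sites called higher and 11.0% of those called lower were above it. The selection for sites listed everywhere favours sites that are high without UV with gel, where the lists are shortest at 30170 and 22911 peaks.

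**Figure D5:**
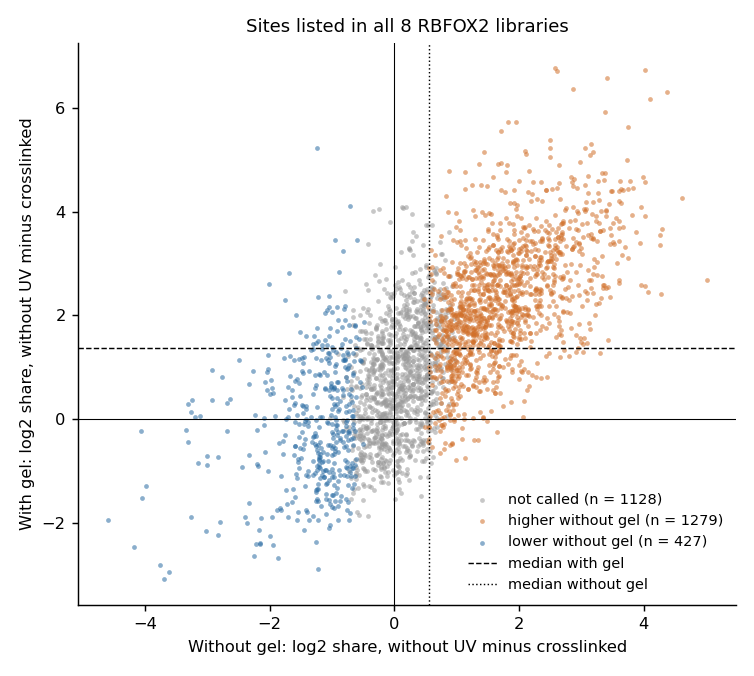
Log2 share without UV minus crosslinked, without gel (x) and with gel (y), for 2834 RBFOX2 sites listed in all 8 libraries, coloured by the limma call without gel. The dashed and dotted lines are the medians, 1.36 with gel and 0.56 without.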

How the data were processed

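The submitters' processing notes name bcl2fastq, STAR 2.7.3a, UMI-tools 1.0.1 and hg19, and file names give CLIPper as the peak caller. Each deposited list, made per library, gives a p-value per peak from the authors' caller, with no adjustment stated, and a last number in the name (at least 4), read here as reads.

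Members and gene lists were chosen with earlier results of these data known. The gene lists and cell markers could not be applied, because 0 gene identifiers matched a symbol, and the motif comparison was not run. Named are the strongest lost genes and sites, the strongest sites seen only without UV, the largest called changes (10 genes and 5 sites a direction) and the sites with the most reads.

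Overlap needed 1 nt on the same strand. Fits used limma 3.58.1 in R 4.3.3 (lmFit, eBayes with trend) on log2(reads per 1000000 listed reads + 1), a scale that understates changes of low values, with Benjamini-Hochberg adjustment. Listed reads are thresholded, so no count model was used. Both fits were tested on simulated data. Bins of expected reads, the fit over 4 antibodies and the limit of 100 RPM were added after the data were seen. Alternatives covered scaling, pseudocount, filters, joining distance, overlap, p below 1e-05, equal list lengths, RecJ libraries as reference, single libraries left out and a replicate block.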

Additional observations from a re-analysis of the deposited data

Results flagged for a closer look

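The median peak width moved in opposite directions in 2 antibodies: it fell by 8.5 nt without UV in RBFOX2 and rose by 3 nt in hnRNPA1, both without gel, a difference of −11.5 nt that was not tested. In hnRNPA1 the medians were 65 and 64 nt without UV and 62 and 61 nt with it. The width also fell without UV by 9.5 nt in hnRNPI and by 0.5 nt in hnRNPc without gel, and by 8.5 nt in RBFOX2 with gel.

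For 549 sites listed in all 16 libraries of the 4 antibodies without gel, the change without UV in RBFOX2 was tested in limma against the mean change in the other 3 (293 differed, 53.4%, 42 with a higher and 251 with a lower value in RBFOX2). The median of this difference over the 549 sites was −0.72, and 137 were above 0, so each value that follows includes that general offset. Among the sites named in the report, 9 differed. Those named for a large rise or fall were picked by the RBFOX2 change, which is part of this difference. Their values are therefore not independent of the choice. The log2 difference of the changes was 0.94 at chr6:26056176-26056292 (limma adjusted p = 0.0316), where the changes in hnRNPA1, hnRNPc and hnRNPI were 3.66, 3.23 and 4.27, and 2.46 at chr9:100767309-100767435. It was −4.64 at chr14:95999690-95999968, −5.14 at chr12:6619386-6619717, −5.40 at chr12:7076499-7076772 and −6.04 at chr1:109642824-109643024. At the last of these the changes were 3.13 in hnRNPA1, 0.83 in hnRNPc and 3.07 in hnRNPI, against −3.70 in RBFOX2. Among the sites with the most reads it was −1.31 at chr11:62609121-62609283, −2.57 at chr10:103124607-103124709 and −1.49 at chr3:180949522-180949591.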

How the results depend on the processing

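The log2 peak number was −1.38 to −1.59 and the width difference −6 to −9.5 nt under every alternative run. The 10 named sites kept their direction under each of their alternatives, and their call after centring and with a replicate block. The cause of the following shifts was not tested, beyond what each setting changes. Genes lost were 39.5% at p below 1e-05, 5.70% at equal list lengths, and 24.7% to 31.3% with 1 library left out, where the reference or the loss rests on 1 list. Sites kept were 32.8% at equal list lengths, 21.0% with peaks as listed, 9.58% at 50% overlap, and 9.25% to 28.2% with 1 library left out, lowest without a crosslinked library. Sites without UV shared with both crosslinked lists were 60.0% at p below 1e-05, 42.6% at equal lengths, 56.5% with peaks as listed, 54.1% joined at 100 nt, 39.9% at 50% overlap, 53.9% against RecJ libraries, and 33.4% to 63.6% with 1 library left out. Genes called were 2319 of 4054 at p below 1e-05, 1572 of 2277 at a mean of 100 RPM, and 2520 to 4887 with 1 library left out. Sites called were 373 of 479 at that mean, and 3874 to 6236 with 1 library left out. Summing all peaks of a gene gave 1709 higher and 1905 lower. The replicate block gave 4071 genes and 5887 sites, but replicates of the same number did not deviate together (correlation −0.012 over genes and 0.0064 over sites), so they share only a number.

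Depth is unknown, so loss from the lists is not absence of reads. Omission of UV, deposit run and list length move together in these 4 libraries and cannot be told apart.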

Other observations

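Loss varied by chromosome. In both libraries without UV 8.61% of crosslinked sites were kept on chromosome 13 and 9.89% on chromosome 18, against 22.2% on chromosome 12 and 24.5% on chromosome 19. Over all crosslinked sites the share was 17.7%. Chromosomes were named after their values were seen, and their sites were not matched for read number or width.

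The 51 genes listed in both libraries without UV and in no crosslinked library were small, with a median of 8 reads. Of these, 17 (33.3%) had a listed span under 500 nt, against 5.95% of all genes of the 4 libraries, and 5 were overlapped by a crosslinked site of another gene. The strongest had 52 and 120 reads over 29 nt.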
